A study of Rattus norvegicus with 6 samples.

Results

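Cholesterol synthesis in the renal cortex was examined through 28 rat genes, comprising 20 enzymes from acetyl-CoA to cholesterol, 7 regulators of the sterol-sensing SREBP system and the sterol carrier gene Stard4. The genes were chosen by their place in the pathway, with earlier results of these data known. They were found on the arrays through the RefSeq accession of each probe. This gave 50 probes for 27 of the 28 genes, out of 61537 non-control probes and 29938 genes tested. Srebf1 was matched to no probe by this rule and is not analysed here. Total RNA came from the renal cortex of 6 male Sprague-Dawley rats, bought at 5 weeks of age. The vehicle group of 3 animals received corn oil for 4 weeks, and the phenylbutazone group of 3 animals was given the cyclooxygenase inhibitor phenylbutazone, used against inflammation and pain, at 200 mg/kg/day over the same 4 weeks. All animals shared strain, sex, supplier and basal diet, and no genetic change is named in the labels. Each rat gave 1 sample on its own one-colour Agilent array, and the series design calls the 3 samples of a group biological replicates.

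Animal cells build cholesterol from acetyl-CoA by way of mevalonate, the isoprenyl diphosphates, squalene and lanosterol. The genes of these enzymes are switched on by SREBP2, the product of Srebf2, and the related product of Srebf1 acts more on fatty acid genes. Both precursors sit in the endoplasmic reticulum bound to Scap, which escorts them to the Golgi when sterols are low, where the proteases encoded by Mbtps1 and Mbtps2 release the active fragment. When sterols are plentiful, the proteins encoded by Insig1 and Insig2 hold Scap back, and Insig1 is itself a target of SREBP, so that its mRNA is often read as a sign of SREBP activity.

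The promoters below were read from RefSeq sequence of the rat assembly GRCr8, which is not the rn4 build of the array layout, and are shown for the pair of retention genes, of which Insig1 had the largest difference and Insig2 the smallest, and for the enzymes Tm7sf2 and Hmgcs1, whose differences ranked high among enzymes with an entry. They were chosen after the values were seen. Each run holds the 250 bases before the annotated start, 5′ to 3′ along the gene. Capitals mark CCAAT on either strand (ATTGG when on the opposite one), the box bound by NF-Y, a partner of SREBP, and CACGTG, the E-box.
Insig1, chr4:8057770-8058019, minus strand: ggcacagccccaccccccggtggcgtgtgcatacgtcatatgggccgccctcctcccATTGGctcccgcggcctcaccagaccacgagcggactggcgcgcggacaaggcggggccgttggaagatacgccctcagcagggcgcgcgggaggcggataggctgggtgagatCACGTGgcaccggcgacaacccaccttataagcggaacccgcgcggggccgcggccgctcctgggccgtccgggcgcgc
Insig2, chr13:35040099-35040348, minus strand: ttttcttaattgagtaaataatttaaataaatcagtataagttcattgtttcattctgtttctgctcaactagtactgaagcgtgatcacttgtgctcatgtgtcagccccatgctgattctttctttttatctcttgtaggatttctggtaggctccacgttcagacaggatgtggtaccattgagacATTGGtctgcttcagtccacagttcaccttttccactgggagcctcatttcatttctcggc
Tm7sf2, chr1:212789542-212789791, minus strand: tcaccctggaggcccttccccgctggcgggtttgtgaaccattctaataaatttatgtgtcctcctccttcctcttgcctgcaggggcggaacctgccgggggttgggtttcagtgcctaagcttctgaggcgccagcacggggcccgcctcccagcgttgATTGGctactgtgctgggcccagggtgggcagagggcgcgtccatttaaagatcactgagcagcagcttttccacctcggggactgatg
Hmgcs1, chr2:53382054-53382303, plus strand: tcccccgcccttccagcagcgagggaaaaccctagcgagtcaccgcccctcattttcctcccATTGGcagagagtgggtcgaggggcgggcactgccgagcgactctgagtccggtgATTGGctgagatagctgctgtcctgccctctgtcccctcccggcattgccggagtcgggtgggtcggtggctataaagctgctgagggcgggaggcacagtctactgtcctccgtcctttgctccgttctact
Hmgcs1 held CCAAT on the opposite strand at 133 and 188 bases before the start, Insig1 at 193, Insig2 at 61 and Tm7sf2 at 89, and Insig1 alone of these 4 held CACGTG, at 79. The RefSeq promoter table held 25 entries for 24 of the 28 genes, with 2 for Srebf1 and none for Sqle, Fdft1, Pmvk and Stard4. CCAAT was found in 19 of the 25 windows (76%), against 34.0% of all 33469 promoter windows of that length, and 9 of the 25 (36%) held at least 2 matches, against 9.42% of all. CACGTG was found in 3 of 25, those of Insig1, Scap and Sc5d (12%), against 5.59% of all. The SREBP consensus TCACNCCAC, searched on both strands, was found in 0 of 25, against 0.974% of all, so these exact letters were not in the windows shown. The matches describe letters and no binding.

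Levels are given as log2 of the processed intensity after subtraction of the array's own 75th percentile, so 0 is the intensity below which 75% of that array's probes lie, and they are compared between arrays for 1 probe at a time, never between genes. Differences are phenylbutazone minus vehicle on the log2 scale with the standard error, n = 3 per group, from limma fitted over all 29938 genes. Between 65.2% and 68.4% of probes were well above background on each array. Vehicle arrays 1 and 2 lay on slide 1, and vehicle array 3 shared slide 2, scanned on another day, with the 3 phenylbutazone arrays. Slide, scan day and treatment are therefore partly confounded. The difference of each sterol gene is also given from vehicle 1 and 2, where slide and treatment cannot be told apart, and from vehicle 3. Vehicle 3 is the only vehicle array of slide 2. For related genes this is done for the medians of their lists.

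Most sterol genes stood slightly higher in the phenylbutazone group, by up to 1.59-fold, and none passed the test. Of the 27 genes measured, 22 had a difference above 0 and 5 below 0, with a median of 0.15 log2 units, whereas 52.8% of all genes had a difference above 0, with a median of 0.015. The sign of 6 of the 27, Acat2, Mvk, Fdft1, Sc5d, Insig2 and Mbtps1, turned under median scaling, quantile normalization or normexp. The limma fit, adjusted by Benjamini-Hochberg over all genes, called 0 of the 27 at an adjusted p under 0.05, and it called 0% of all genes. The lowest limma adjusted p of the 27 was 0.189, for Insig1. Without adjustment, 7 of the 27 had a p under 0.05, all on the higher side, against 5.97% of all genes, and 0 on the lower side, against 6.24%. These were Insig1, Tm7sf2, Sqle, Hmgcs1, Pmvk, Srebf2 and Hsd17b7. In 11 of the 27 (40.7%) every phenylbutazone array lay above every vehicle array, against 12.1% of all genes, and in 0 every phenylbutazone array lay below, against 9.39%. The other 4 of the 11 were Cyp51, Stard4, Fdps and Ebp. The shares set beside all genes describe a list made with earlier results of these data known, and are no independent test. Fewer cells of a type and less RNA per cell cannot be told apart in such bulk tissue.

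**Figure D1:**
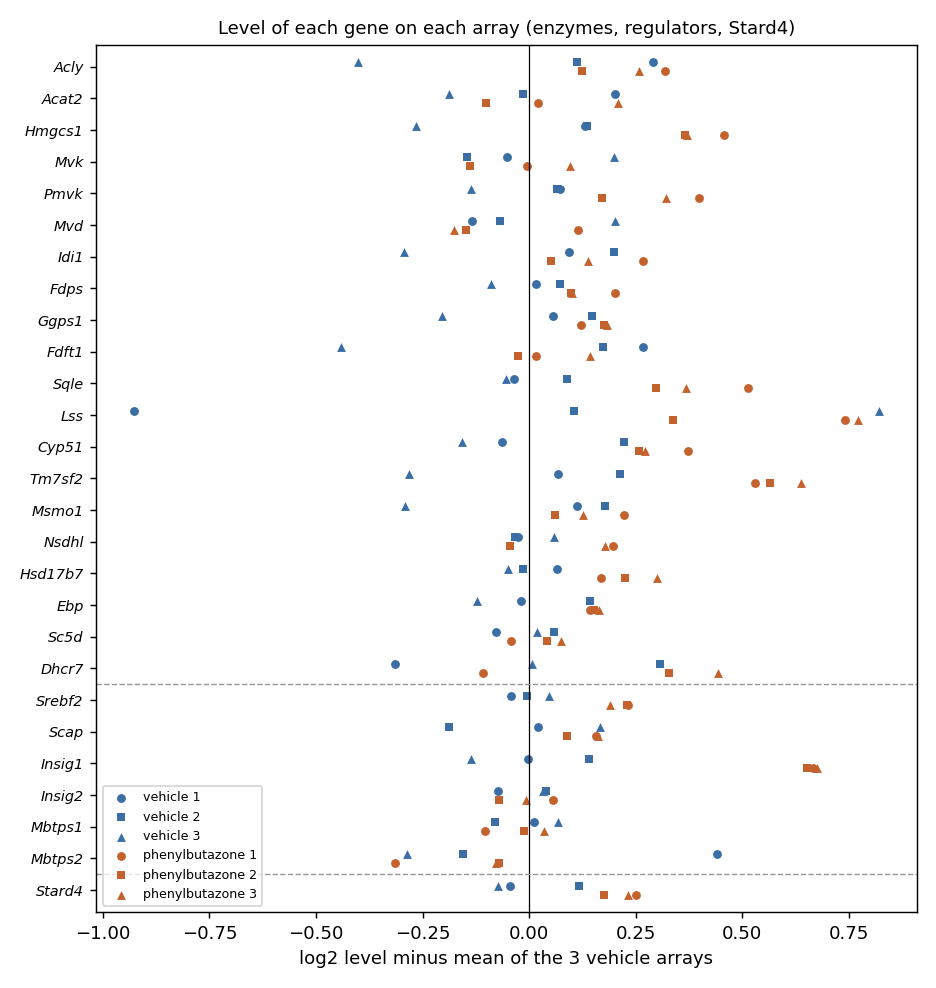
Log2 level of each of the 27 measured genes on each array, minus the mean of the 3 vehicle arrays (x axis), with genes in pathway order (y axis), vehicle in blue, phenylbutazone in orange and the replicate number as the symbol shape. Dashed lines separate enzymes, regulators and Stard4; the 3 phenylbutazone points of Insig1 lie together to the right, and those of vehicle 3 (blue triangles) lie left of the other arrays for many enzymes.

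The first steps supply acetyl units and condense them to HMG-CoA. Hmgcs1, which encodes the cytosolic HMG-CoA synthase, had levels of 2.57, 2.57 and 2.17 on vehicle arrays 1, 2 and 3 and of 2.90, 2.80 and 2.81 on phenylbutazone arrays 1, 2 and 3. All treated animals lay above all controls, and vehicle 3 was the lowest array. The difference was 0.40 ± 0.14 (1.32-fold, limma adjusted p = 0.361), and came to 0.26 from vehicle 1 and 2 and 0.66 from vehicle 3. Acly, which encodes the ATP citrate lyase that makes cytosolic acetyl-CoA, read 3.78, 3.61 and 3.09 in vehicle and 3.81, 3.62 and 3.75 in phenylbutazone. Here the treated arrays matched vehicle 1 and 2 closely, with a difference of 0.03, and stood 0.64 above vehicle 3 alone, for a pooled difference of 0.23 ± 0.19. Acat2, the cytosolic thiolase gene, stood at 0.043 ± 0.14 with overlapping groups, and its sign turned with the controls, at -0.052 from vehicle 1 and 2 and 0.23 from vehicle 3.

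Of the 6 genes from mevalonate to the isoprenyl diphosphates, Pmvk had the largest difference. Pmvk encodes phosphomevalonate kinase, and its levels were 0.33, 0.32 and 0.12 in vehicle and 0.65, 0.43 and 0.58 in phenylbutazone. The groups did not overlap, and the difference was 0.30 ± 0.11, with a limma adjusted p of 0.390. This came to 0.23 from vehicle 1 and 2 and 0.43 from vehicle 3. Fdps, which encodes farnesyl diphosphate synthase, read 2.82, 2.87 and 2.71 against 3.00, 2.90 and 2.90, also without overlap but with a gap of only 0.026 between the nearest arrays. Its difference was 0.13 ± 0.096, at 0.089 from the slide 1 controls and 0.22 from vehicle 3. Idi1, the isopentenyl diphosphate isomerase gene, stood at 0.15 ± 0.16, and its value from vehicle 1 and 2 was 0.0056 against 0.45 from vehicle 3. Ggps1, which encodes the geranylgeranyl diphosphate synthase of the branch toward protein prenylation, stood at 0.16 ± 0.12, at 0.058 and 0.36 from the same controls. The kinase gene Mvk at -0.016 ± 0.13 and the decarboxylase gene Mvd at -0.070 ± 0.14 were the enzymes below 0, each by less than its standard error. Their signs turned with the controls, Mvk standing at 0.083 from vehicle 1 and 2 and -0.21 from vehicle 3, and Mvd at 0.031 and -0.27.

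At the squalene steps the genes differed widely. Sqle encodes squalene epoxidase, a rate-limiting enzyme of the later pathway. Its levels were 1.13, 1.25 and 1.11 in vehicle and 1.67, 1.46 and 1.53 in phenylbutazone, with no overlap. The difference of 0.39 ± 0.10 (1.31-fold, limma adjusted p = 0.300) changed little with the controls used, at 0.37 from vehicle 1 and 2 and 0.45 from vehicle 3. Fdft1, the squalene synthase gene just before it, read 2.95, 2.85 and 2.24 in vehicle and 2.70, 2.65 and 2.82 in phenylbutazone. All treated arrays lay below vehicle 1 and 2 and above vehicle 3, so that its difference was -0.18 from the former pair and 0.49 from the latter.

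Lss, which encodes the lanosterol synthase that closes the sterol rings, was the most variable gene of the pathway between control animals. Its levels were -0.45, 0.58 and 1.30 in vehicle, a range of 1.75, and 1.22, 0.82 and 1.25 in phenylbutazone, a range of 0.43. Its second probe read -1.74, -0.94 and 0.38 against -0.13, -0.42 and -0.19, placing the vehicle animals in the same order. The difference of 0.62 ± 0.43 therefore rested on vehicle 1 and 2, at 1.03 from that pair and -0.20 from vehicle 3. The median over the other 26 genes was 0.15, as with Lss.

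The 8 enzymes that turn lanosterol into cholesterol all had differences above 0, with a median of 0.19. Tm7sf2, a sterol reductase gene, had levels of 2.28, 2.42 and 1.93 in vehicle and 2.74, 2.77 and 2.85 in phenylbutazone. The nearest arrays of the groups were 0.32 apart. The difference was 0.58 ± 0.15 (1.49-fold, limma adjusted p = 0.285), at 0.44 from vehicle 1 and 2 and 0.86 from vehicle 3. Cyp51, the lanosterol demethylase gene, read -0.35, -0.061 and -0.44 against 0.089, -0.026 and -0.011. The groups were 0.036 apart, and the difference was 0.30 ± 0.13, at 0.22 from vehicle 1 and 2 and 0.46 from vehicle 3.

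Hsd17b7, which encodes a sterol ketone reductase, read -1.89, -1.97 and -2.01 in vehicle and -1.79, -1.73 and -1.66 in phenylbutazone. On this probe every treated animal lay above every control, with a difference of 0.23 ± 0.094 and a limma adjusted p of 0.402. This came to 0.21 from vehicle 1 and 2 and 0.28 from vehicle 3. Ebp, the sterol isomerase gene, read 3.68, 3.84 and 3.58 against 3.84, 3.85 and 3.86, so that its groups were apart by 0.0018 only. Its difference was 0.15 ± 0.10, at 0.092 and 0.28 from these controls. Msmo1, the sterol methyl oxidase gene, stood at 0.14 ± 0.15, with -0.0089 from vehicle 1 and 2 and 0.43 from vehicle 3. The dehydrogenase gene Nsdhl (0.11 ± 0.11), the desaturase gene Sc5d (0.025 ± 0.095) and Dhcr7 (0.22 ± 0.21), which encodes the reductase of the last step, had overlapping groups. From vehicle 1 and 2 they stood at 0.14, 0.034 and 0.23, and from vehicle 3 at 0.051, 0.0068 and 0.21. Dhcr7 was low in 1 animal of each group, vehicle 1 at 2.09 and phenylbutazone 1 at 2.30, against 2.42 to 2.85 on the other arrays.

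**Figure D2:**
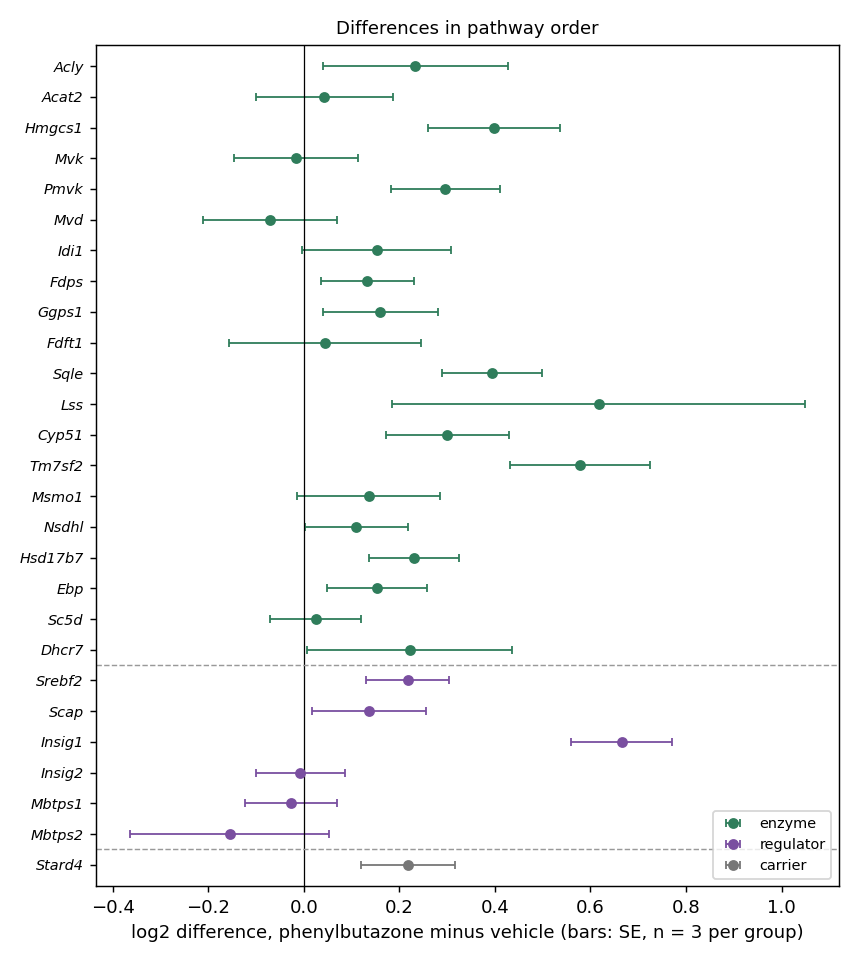
Log2 difference of phenylbutazone from vehicle (x axis) for each gene in pathway order (y axis), with the standard error as bars, n = 3 per group. Enzymes are green, regulators purple and Stard4 grey; Insig1 at 0.67 and Tm7sf2 at 0.58 stand farthest from 0 with short bars, Lss at 0.62 has the longest bar.

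Among the regulators, Insig1 stood apart from the rest. Its levels were 2.06, 2.20 and 1.92 in vehicle and 2.73, 2.71 and 2.74 in phenylbutazone. The 3 treated animals spanned 0.023, and the lowest of them was 0.51 above the highest control. The difference was 0.67 ± 0.11 (1.59-fold), with an unadjusted p of 0.000675 and a limma adjusted p of 0.189. It was 0.60 from vehicle 1 and 2, where the limma adjusted p was 0.0376 and 2.72% of all genes were called, and 0.80 from vehicle 3, where the limma adjusted p was 0.132. In Insig2 the groups overlapped. It encodes the second retention protein, and its levels were -0.36, -0.25 and -0.26 in vehicle and -0.23, -0.36 and -0.30 in phenylbutazone, a difference of -0.0070 ± 0.094 with overlap, which turned to 0.040 with median scaling and 0.026 with normexp. It was 0.0097 from vehicle 1 and 2 and -0.040 from vehicle 3.

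Srebf2, the gene of the main activator of the pathway, read 1.51, 1.55 and 1.60 in vehicle and 1.79, 1.79 and 1.75 in phenylbutazone. Both groups were narrow and did not overlap. The difference of 0.22 ± 0.088 (1.16-fold, limma adjusted p = 0.401) was 0.24 from vehicle 1 and 2 and 0.17 from vehicle 3. Scap, the gene of the sterol sensor and escort, read 2.02, 1.81 and 2.16 against 2.16, 2.09 and 2.16, with overlap and a difference of 0.14 ± 0.12. Its sign turned with the controls, at 0.22 from vehicle 1 and 2 and -0.030 from vehicle 3.

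The protease genes that release the active factor had pooled differences below 0, each smaller than its standard error and of no fixed sign. Mbtps1, the site-1 protease gene, read 3.00, 2.91 and 3.06 in vehicle and 2.89, 2.98 and 3.02 in phenylbutazone, at -0.027 ± 0.097, which turned to 0.020 with median scaling. It was 0.0074 from vehicle 1 and 2 and -0.096 from vehicle 3. Mbtps2, the site-2 protease gene, read -3.80, -4.39 and -4.52 in vehicle and -4.55, -4.31 and -4.31 in phenylbutazone, at -0.15 ± 0.21, with vehicle 1 alone above the rest. It was -0.30 from vehicle 1 and 2 and 0.13 from vehicle 3. Stard4, the gene of a soluble cholesterol carrier, read 1.68, 1.84 and 1.65 against 1.97, 1.90 and 1.95, without overlap, at 0.22 ± 0.098, with 0.18 from vehicle 1 and 2 and 0.29 from vehicle 3.

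Taking enzymes and regulators as groups, 18 of 20 enzymes had a difference above 0 (median 0.16) and 3 of the 6 regulators did, Insig1, Srebf2 and Scap (median 0.065). Groups were apart on the higher side in 8 of 20 enzymes (40.0%) and in 2 of 6 regulators (33.3%), against 12.1% of all genes. The difference between these groups of genes was not tested. Each gene was also centred on its mean over the 6 arrays. The enzymes' median deviation then stood at -0.072, -0.019 and -0.23 on vehicle arrays 1 to 3, compared with 0.15, 0.029 and 0.12 on phenylbutazone arrays 1 to 3. For the regulators the vehicle arrays gave -0.059, -0.095 and -0.012, and the treated arrays 0.075, 0.014 and 0.064. Both medians were higher on each treated array than on each control. On the probes of highest mean level, the low enzyme value of vehicle 3 had no counterpart among the regulators.

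Vehicle 3 was the lowest of the 6 arrays in 14 of 20 enzymes (70.0%) and in 1 of 6 regulators (16.7%), Insig1, against 34.3% of all genes. This counts each gene's probe of highest mean level only. Another probe placed vehicle 3 above the mean of vehicle 1 and 2 for Hmgcs1, Fdps, Fdft1, Cyp51 and Hsd17b7, by 0.054 to 0.36. All probes of Acly, Acat2, Idi1, Ggps1, Sqle and Tm7sf2 placed it below. All phenylbutazone arrays lay above vehicle 3 in 17 of the 27 genes (63.0%), against 41.4% of all genes. All phenylbutazone arrays lay above both vehicle 1 and vehicle 2 in 13 of 27 (48.1%), against 21.6%, and below both in 1, Fdft1, against 22.1%. The median of the enzymes was 0.090 from vehicle 1 and 2 and 0.32 from vehicle 3, where the median of all genes was -0.0027 and 0.055. The vehicle arrays had the wider range in 22 of the 27 genes, against 67.8% of all genes, with a median range of 0.34 in vehicle and 0.14 in phenylbutazone for these 27 and of 0.40 and 0.23 for all genes.

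**Figure D3:**
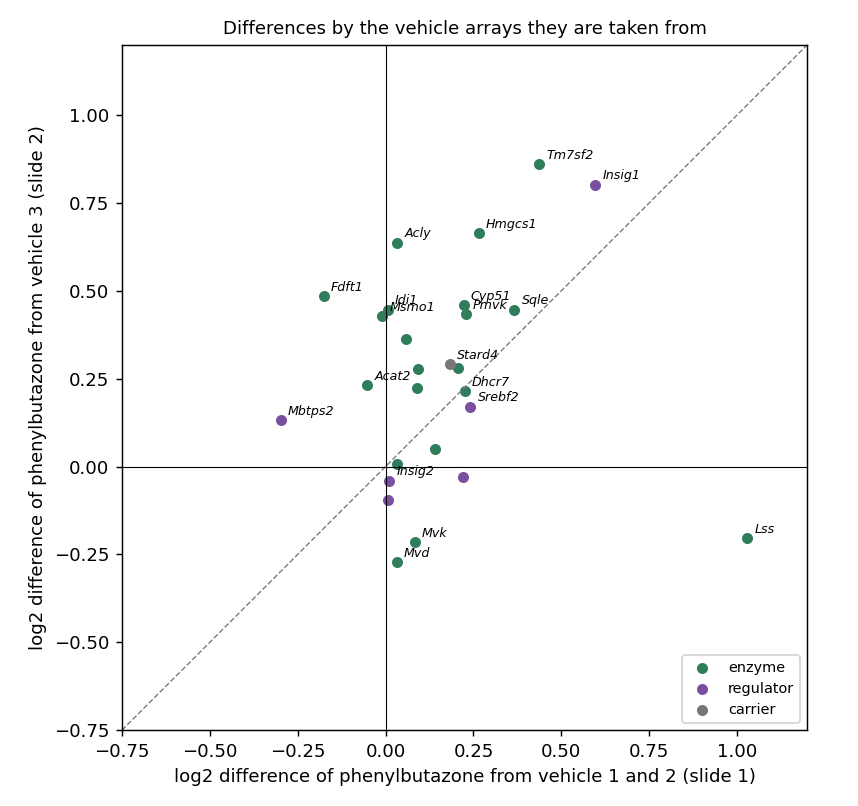
Log2 difference of the 3 phenylbutazone arrays from vehicle 1 and 2 on slide 1 (x axis) and from vehicle 3 on slide 2 (y axis), 1 point per gene, with the dashed line marking equal values. Each gene is shown by its probe of highest mean level only. Insig1, Tm7sf2, Sqle and Hmgcs1 lie well above 0 on both axes, and Srebf2 lies at 0.24 and 0.17. Acly, Idi1 and Msmo1 lie near 0 on the x axis and at 0.43 to 0.64 on the y axis, and Lss lies at 1.03 and -0.20.

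Several probes were tested for 17 of the 27 genes, and they gave the same sign of the treatment difference in 16. Signs differed only for Fdft1 (0.044 and -0.086). Among all 6333 named genes with several tested probes, 40.8% had probes of both signs. Of the 49 tested probes of the pathway, 41 stood higher and 8 lower, with a median of 0.18, 18 were apart on the higher side, against 11.2% of all probes, and 0 passed over all probes (limma), the lowest adjusted p being 0.204. The third probe of Srebf2, well above background on 2 arrays, was not tested.

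All 4 probes of Insig1 had their groups apart. They gave 0.67 ± 0.11, 0.44 ± 0.14, 0.39 ± 0.14 and 0.33 ± 0.14. The probes disagreed on vehicle 3, however. The probe of the highest level placed it lowest of the controls, at 1.92, whereas a second probe read 0.27, 0.50 and 0.71 on vehicle arrays 1 to 3, against 0.86, 0.97 and 0.96 in phenylbutazone, placing vehicle 3 highest of the controls. The other pair of probes also placed it highest of the controls. They read -0.99 on vehicle 3 against -0.88, -0.91 and -0.82 in phenylbutazone, and -2.05 against -1.93, -1.82 and -1.95. On all probes but that of the highest level, the treated arrays thus stood much closer to vehicle 3. Probes of 1 gene placed vehicle 3 on different sides of the mean of vehicle 1 and 2 in 8 of the 17 genes with several probes, against 48.2% of all such genes.

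Both Tm7sf2 probes had groups apart (0.58 ± 0.15 and 0.52 ± 0.15), and so had both Sqle probes (0.39 ± 0.11 and 0.18 ± 0.11 over all probes). Of the 3 Hmgcs1 probes 2 were apart, at 0.44 ± 0.12 and 0.40 ± 0.14, and the remaining probe, at 0.20 ± 0.16, was not. The second Stard4 probe stood at 0.030 ± 0.10, close to 0, and the second Srebf2 probe at 0.28 ± 0.21, with vehicle 3 at -1.60 above all other arrays. Groups overlapped on both of these second probes, and also on the second probes of Hsd17b7 (0.26 ± 0.17) and Cyp51 (0.22 ± 0.17). Of the 3 Fdps probes 2 were apart, and the remaining probe, at 0.078 ± 0.099, was not. The second Mbtps2 probe stood at -0.38 ± 0.26.

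**Figure D4:**
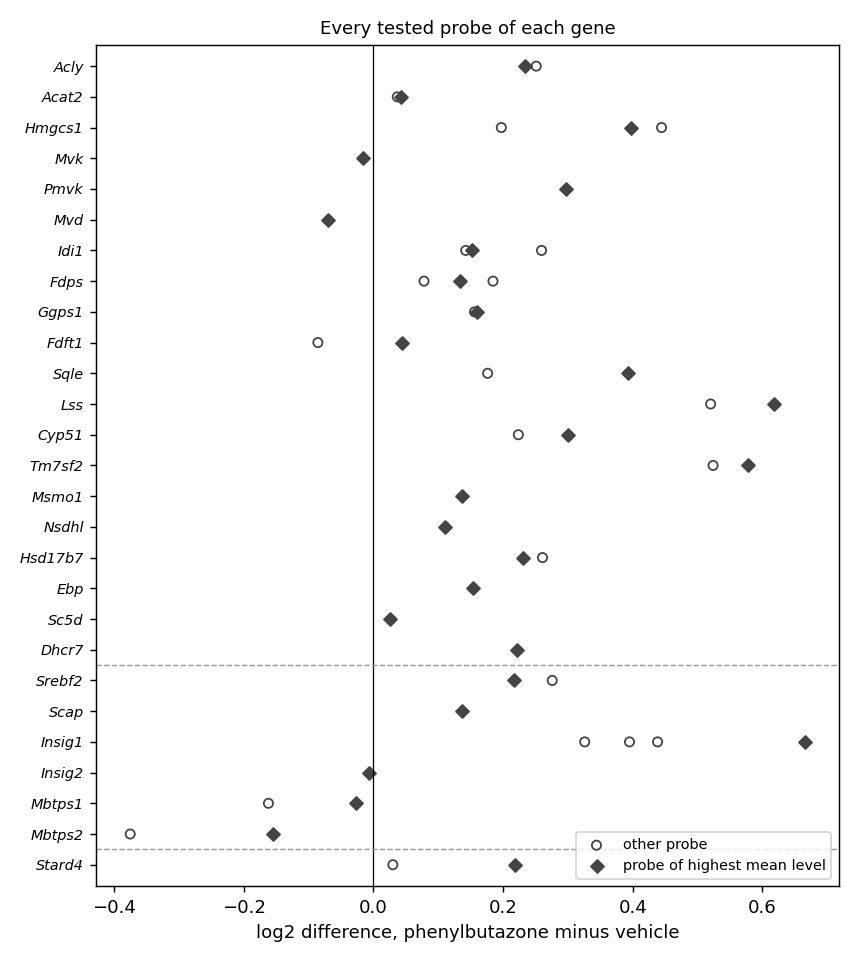
Log2 difference of phenylbutazone from vehicle (x axis) for each of the 49 tested probes, by gene in pathway order (y axis), with the probe of the highest mean level as a filled diamond and others as open circles. Probes of a gene lie on the same side of 0 except for Fdft1, and the 4 Insig1 probes span 0.33 to 0.67.

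Genes around the pathway were taken from lists made by role, also with earlier results of these data known. Of 57 tested genes on these lists, 0 passed the limma test over all genes. At an unadjusted p under 0.05, 3 stood higher and 3 lower, shares below the 5.97% and 6.24% of all genes. Of 14 tested genes on the list of SREBP-1 lipogenic targets 10 stood higher and 4 lower. Their median was 0.11, at 0.15 from vehicle 1 and 2 and -0.020 from vehicle 3. Of them 3 were apart on the higher side, Tmem97 included, and 1 on the lower, against 12.1% and 9.39% of all genes. Tmem97 encodes a sterol-regulated membrane protein and no lipogenic enzyme. It read 0.78, 0.98 and 0.95 in vehicle and 1.28, 1.36 and 1.63 in phenylbutazone, at 0.52 ± 0.13. Elovl6, a fatty acid elongase gene, read 1.40, 1.39 and 1.17 against 1.64, 1.75 and 1.68, at 0.37 ± 0.11. Both were apart from every control, as Insig1 was. Thrsp, the lipogenic Spot 14 gene, read -3.50, -3.71 and -4.15 against -4.29, -4.93 and -4.62, at -0.83 ± 0.23, apart on the lower side. The fatty acid synthase gene Fasn stood at -0.031 ± 0.22, with overlapping groups.

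Of 10 tested genes of the isoprenoid branch 8 stood higher and 2 lower (median 0.12, at 0.11 from vehicle 1 and 2 and 0.10 from vehicle 3). Groups were apart on the higher side in 4 of the 10 (40.0%), the same share as in the sterol enzymes, against 12.1% of all genes. On the lower side 1 was apart, against 9.39% of all genes. Nus1, which encodes a subunit of the dolichol-making prenyltransferase, read 3.73, 3.82 and 3.36 in vehicle and 2.26, 2.84 and 2.52 in phenylbutazone. The groups were apart, at -1.09 ± 0.19 with a limma adjusted p of 0.208, but its other probes lay at -0.018 and 0.063. Its partner gene Dhdds stood at 0.21 ± 0.093 and the farnesyltransferase subunit gene Fnta at 0.18 ± 0.089, both apart on the higher side. Of 7 tested genes of ER proteins around SREBP processing 5 stood higher and 2 lower. Their median was 0.081, at 0.018 from vehicle 1 and 2 and 0.074 from vehicle 3. The ubiquitin ligase gene Rnf145 stood at -0.45 ± 0.14 and Ubxn4 at 0.29 ± 0.10, each with groups apart.

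The pooled medians of the other lists lay close to 0, though some moved with the controls. Sterol efflux and LXR targets had a median of -0.038 over 5 tested genes, with the cholesterol efflux gene Abca1 at -0.33 ± 0.15. The list stood at -0.15 from vehicle 1 and 2 and 0.072 from vehicle 3. Cholesterol storage and trafficking genes had a median of 0.046 over 10, at 0.052 and 0.013 from these controls. The carrier gene Stard5 stood at -0.39 ± 0.18 and the lysosomal lipase gene Lipa at 0.26 ± 0.17. Stard3, an endosomal sterol carrier gene, stood at 0.25 ± 0.15 with groups apart, and its other probe at -0.060. Oxysterol and bile acid enzymes had a median of -0.015 over 4, at -0.029 from vehicle 1 and 2 and 0.21 from vehicle 3. The partner list, most of whose products pass electrons to the sterol oxidases, had a median of 0.00054 over 4. It stood at -0.0041 from vehicle 1 and 2 and -0.21 from vehicle 3. The mitochondrial thiolase gene Acat1, whose product serves ketone bodies rather than sterols, stood at -0.16 ± 0.12 with groups apart on the lower side.

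Cell type markers stood higher in the phenylbutazone group in some lists, and their part in the sterol values was not tested. Of 10 listed erythrocyte markers 9 were tested, 7 higher and 2 lower (median 0.44), with summed scaled intensities of 372 to 508 in vehicle and 431 to 674 in phenylbutazone, overlapping. All 4 intercalated cell markers stood higher (median 0.44), with sums of 102 to 142 against 161 to 206. Of these 3 had groups apart, against 12.1% of all genes. The remaining marker, Foxi1, overlapped at 0.16, and stood at -0.13 from vehicle 1 and 2. Its other probes lay at -0.22 and -0.17. All 4 thick limb markers stood higher (median 0.29), with sums of 180 to 301 against 297 to 399. Their median was 0.059 from vehicle 1 and 2 and 0.80 from vehicle 3, the array low in sterol enzymes on their probes of highest mean level. Of the 4, 2 stood higher from vehicle 1 and 2. From vehicle 3, 3 stood higher and Ptger3 lower, at -0.58. Proximal tubule markers, the defining genes of the cortex, were well above background on all arrays for 10 of 10 genes, with a median of 0.023 and sums of 1739 to 1836 against 1756 to 1845. Of the adrenal cortex markers Star was well above background on 0 arrays and Cyp11b1 on 1, and all 3 tested stood higher (median 0.26, at -0.12 from vehicle 1 and 2 and 1.07 from vehicle 3), with sums of 0.219 to 0.367 against 0.274 to 0.347. Of these Cyp11a1 stood at 0.26 ± 0.68 and Cyp21a1 at 0.0022 ± 0.18, with overlapping groups. Mc2r was well above background on 3 of 6 arrays, the fewest the filter allowed. It read -6.27, -7.43 and -6.14 in vehicle and -4.28, -5.50 and -5.17 in phenylbutazone, at 1.63 ± 0.45 (limma adjusted p = 0.303). A gene that passes the filter through the arrays where it is high can be apart for that reason, so this gap is not read as a difference. Of 5 adipocyte markers 3 were tested, with a median of -0.11 and sums of 1.00 to 1.35 against 0.777 to 1.34. The lists for distal tubule, principal cells, podocytes, endothelium, fibroblasts, macrophages and lymphocytes had medians from -0.13 to 0.18.

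**Figure D5:**
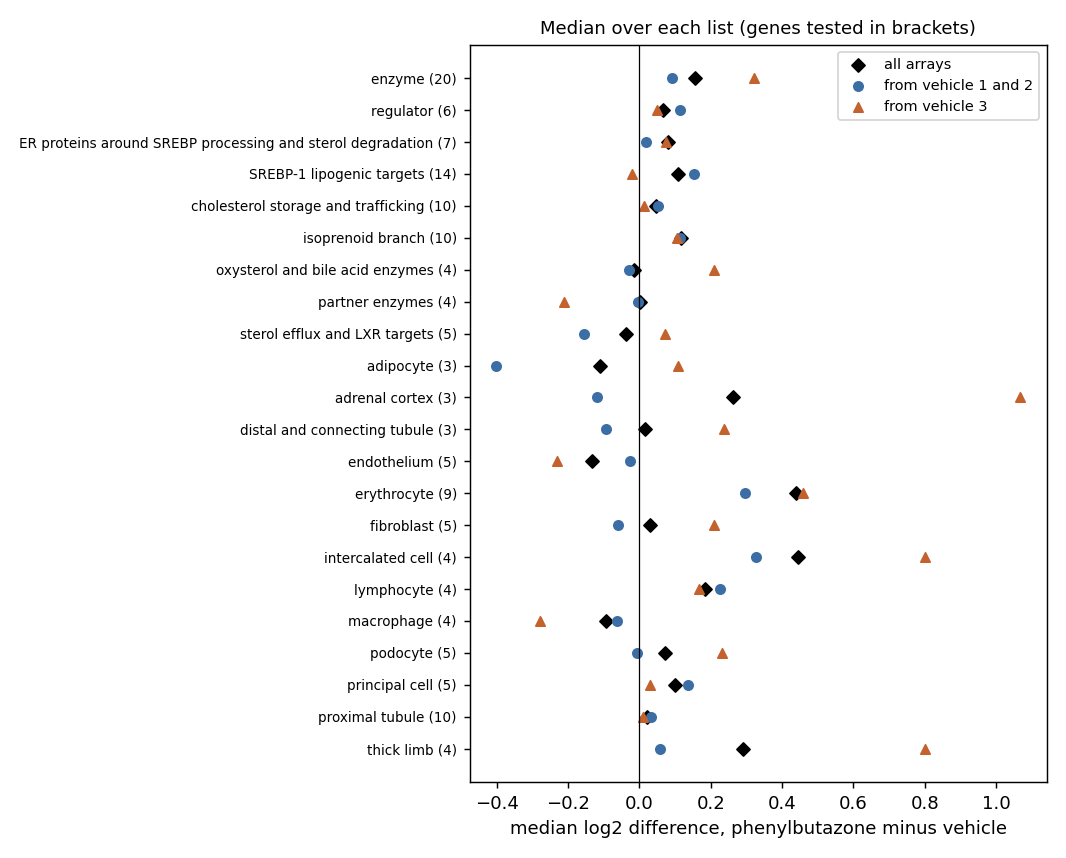
Median log2 difference of phenylbutazone from vehicle (x axis) for the sterol enzymes and regulators and for the lists of related genes and cell type markers, with the number of tested genes in brackets (y axis). Black diamonds use all arrays, blue circles vehicle 1 and 2 and orange triangles vehicle 3; enzymes lie at 0.16, 0.090 and 0.32, and thick limb and intercalated cell markers also lie farther right from vehicle 3.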

How the data were processed

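Agilent Feature Extraction 10.7 is named in the submitters' processing notes. The authors' deposited scanner output gives a spot's processed intensity, which is background-subtracted and not normalized between arrays, per the file headers; its layout uses rn4. The value table deposited by the authors holds a ratio, which matched each array's intensity divided by its 75th percentile to within 0.005 on the log2 scale where the ratio was above 0.1. Of 61537 non-control probes, 40 carried an outlier flag and were left out, 20491 were too dim to test, and 41006 passed as well above background on at least 3 of 6 arrays. Accessions matched to RefSeq GRCr8 gave a symbol to 28206 probes (45.8%). The probe of highest mean level stood for its gene. The fit used limma (version 3.58.1, R 4.3.3, lmFit, then eBayes), with two-sided p-values adjusted by Benjamini-Hochberg across 29938 genes and called under 0.05. It was also run on simulated arrays without a slide effect. There it recovered 49% of 100 genes changed 2-fold and 96% of 100 changed 4-fold, with 14 false calls. Differences as small as those of the sterol genes were not simulated, so many such changes could go uncalled.

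The sterol genes and all lists were chosen with earlier results of these data known. All 28 sterol genes are named. Of each related list, up to 3 genes of smallest p are named; Fasn was added after its value was seen. Promoters were to be printed for genes with a TCACNCCAC match, and as there were none the printed ones were chosen by their values. Normexp used the median spot intensity, since the files held no mean spot intensity. The number of arrays limits the precision. A related gene is not reported here.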

Additional observations from a re-analysis of the deposited data

How the results depend on the processing

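Of the 27 genes, 16 kept their sign in all 19 alternatives, and 33 of 513 values changed sign, in the other 11 genes. Insig1 ranged from 0.46 to 0.80 (limma adjusted p 0.038 to 0.536), Tm7sf2 from 0.44 to 0.86 and Sqle from 0.28 to 0.46. Over all genes the number called by limma was 2 with normexp (offset 50), 1 with quantile normalization, 8 with an intensity trend, 1 with slide as a random block, and 0 to 814 when 1 array was left out, the 814 without vehicle 3. Of the sterol genes 0 to 1 was called when 1 array was left out, Insig1 without vehicle 3. The members' median was 0.28 with the slide block and on slide 2 alone, 0.23 with slide as a random block, and 0.092 to 0.225 with 1 array left out. The enzymes' median was 0.32, 0.32 and 0.28 under these slide settings and 0.090 to 0.23 with 1 array left out. The regulators' median was 0.11 with median scaling, 0.18 over every probe, 0.051 with the slide block and on slide 2 alone, 0.029 with slide as a random block, and 0.028 to 0.115 with 1 array left out. Groups were apart on the higher side for 18 of 49 probes when every probe was counted, against 11.2% of all probes. On slide 2 alone this held for 17 of the 27 genes, against 41.4% of all genes. With 1 array left out it held for 11 to 13 of the 27, where fewer arrays make such gaps more common. The 13 without vehicle 3 stood against 21.6% of all genes, compared with 12.1% when all arrays were used. For the other arrays left out the share of all genes was not computed, so those counts do not show that the result is stable. No alternative of this count was planned, and that on slide 2 was chosen after seeing the data.

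Signs turned with quantile normalization for Acat2 (-0.0014), Mvk (0.0047) and Fdft1 (-0.0026), and with the mean of probes for Fdft1 (-0.021). With median scaling they turned for Mvk (0.031), Insig2 (0.040) and Mbtps1 (0.020), and with normexp for Sc5d (-0.057), Insig2 (0.026) and Mbtps1 (0.017). With the slide block, as on slide 2 alone, they turned for Lss (-0.20), Scap (-0.030) and Mbtps2 (0.13, and 0.028 with slide as a random block). With 1 array left out, Acat2 ranged from -0.052 to 0.14, Mvk from -0.089 to 0.083, Mvd from -0.16 to 0.031, Fdft1 from -0.18 to 0.18, Msmo1 from -0.0089 to 0.23, Sc5d from -0.014 to 0.059, Insig2 from -0.043 to 0.025, Mbtps1 from -0.067 to 0.011 and Mbtps2 from -0.30 to 0.065. The cause was not tested, apart from the fewer arrays in each.

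Median scaling moved the median of all genes from 0.015 to 0.063. Same-numbered animals did not deviate together (correlations -0.030, 0.011 and -0.074), and with the replicate block limma called 0 genes and the members' median was 0.15. Vehicle 3 is the only control of slide 2, so every value on that slide assumes that it varies like the treated arrays.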
